A study of Mus musculus with 8 samples.

Results

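The respiratory chain genes described here are the subunits of complexes I to IV, together with the complex V subunits of the mitochondrial genome, in epithelium and organoids of the mouse extrahepatic bile duct and pancreatic duct. They were picked by gene name alone, as the protein-coding rows whose symbol begins with Ndufa, Ndufb, Ndufc, Ndufs or Ndufv and a number, Sdha to Sdhd, Uqcr, Cox4 to Cox8, or mt-Nd, mt-Co, mt-Cyt or mt-Atp. This rule found 78 of the 31228 genes in the table, of which 18563 are protein-coding. There were 65 nuclear members, made up of 36 of complex I, 4 of complex II, 8 of complex III and 17 of complex IV. The 13 mitochondrial members were 7 of complex I, 1 of complex III, 3 of complex IV and 2 of complex V. The name rule is not a strict list of subunits, since Cox7a2l is better known as a factor for joining complexes and Ndufa4 is now counted with complex IV. It leaves out Cyc1 and Ndufab1, which are given at the end.

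All 8 libraries came from C57BL/6 mice with no engineered allele named in the labels. There was 1 library of bile duct epithelium and 1 of pancreatic duct epithelium, taken straight into Trizol after dissection and collagenase IV digestion. The other 6 were organoids, 3 from each duct, which are hollow epithelial cultures in Matrigel, sampled after a few passages. All organoids had been started with Wnt3A, EGF, R-spondin, Noggin, FGF10, nicotinamide, N-acetylcysteine, B27 and Y27632, and lost Wnt3A and Y27632 once a lumen had formed. No age, sex or number of animals is given, and the epithelia were not sorted by any marker. Nothing says that the 3 organoids of a group came from separate animals, so p-values measure only the spread between these libraries, which may be technical. Lists of values below give bile duct before pancreatic duct epithelium, and organoids in the order 1, 2, 3.

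The respiratory chain passes electrons from NADH and succinate to oxygen through complexes in the inner mitochondrial membrane, and complex V makes ATP from the proton gradient that results. Most subunits are encoded in the nucleus, translated in the cytosol and imported. A few core subunits of complexes I, III, IV and V are encoded by the mitochondrial genome, which is transcribed by its own polymerase into long polycistronic RNAs and present in many copies per cell. Complex II is encoded by nuclear genes alone. Several complex IV subunits have alternative forms used in muscle, lung or testis.

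Some mitochondrial genes have copies on chromosome 1 that are the same or nearly the same, and a read that lies wholly in shared sequence cannot be assigned to either. A run of 7 unprocessed pseudogenes lies at chr1:24611535-24616197 on the minus strand (GRCm38, GENCODE M21 annotation). The first 80 bases of mt-Co2, at chrM:7013-7092 on the plus strand, are identical in Gm28661, and the match is 100% over 681 bases of a gene of 684. The first 80 bases of mt-Nd3 (chrM:9459-9538, plus strand) differ from Gm28438 (chr1:24613040-24613119, minus strand) by T3C, counted from 1 at the 5′ end of mt-Nd3. A stretch of mt-Co1 (chrM:6390-6469, plus strand) differs from Gm29216 (chr1:24616109-24616188, minus strand) by A1066T, counted from 1 at the 5′ end of mt-Co1. Capitals mark the base that differs in each pair, and mt-Co2 has none.
mt-Co2: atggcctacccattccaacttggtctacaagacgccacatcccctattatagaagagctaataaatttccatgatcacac
mt-Nd3: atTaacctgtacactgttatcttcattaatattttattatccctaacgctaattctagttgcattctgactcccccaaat
Gm28438: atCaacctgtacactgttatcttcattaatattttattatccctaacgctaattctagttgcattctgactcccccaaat
mt-Co1: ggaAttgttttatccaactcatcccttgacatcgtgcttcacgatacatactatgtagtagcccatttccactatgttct
Gm29216: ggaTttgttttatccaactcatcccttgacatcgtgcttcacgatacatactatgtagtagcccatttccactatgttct
At least 98.99% of the length of mt-Co2, mt-Co3, mt-Atp6, mt-Nd3 and mt-Nd4l lies in such a copy, as does 63.6% of mt-Nd4 and 31.3% of mt-Co1. The remaining 6 mitochondrial members had no copy of 98% identity or more. The values of the 5 whole-length cases are uncertain, because the counting may have split or dropped their reads. The 7 copies summed to 8629 and 6165 FPKM in the epithelia and to 1229 to 1698 in the organoids. The 5 whole-length genes summed to 2159.9 and 1567 FPKM against 439 to 772, and the 5 copies of these genes to 6111 and 4523 against 942 to 1320.1. For mt-Co2 the copy was listed above the gene in every library, with Gm28661 at 1722 and 1335 FPKM and mt-Co2 at 889 and 671 in the epithelia.

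The deposited FPKM imply 12876470 to 20828214 reads per library. The labelled tissue was checked against 12 duct epithelium markers, all of them detected in both epithelia. Their summed FPKM was 2720 and 673 in the epithelia and 5793 to 11494 in the organoids, with both epithelia below every organoid for 9 of the 12. Both epithelia also held markers of acinar cells, smooth muscle, fibroblasts, endothelium and leukocytes that were near 0 in organoids, so they were mixed tissue. In bulk RNA, fewer cells of a type and less RNA per cell cannot be told apart, which touches every comparison with an epithelium below. Pancreatic duct organoids 1 and 2 stood apart from the other organoids in mitochondrial ribosomal RNA, as given below.

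Mitochondrial members were much lower in organoids than in epithelia, and this was so for 12 of the 13. As a share of all FPKM they made up 23.4% and 17.7% in the epithelia and 5.30% to 6.95% in the organoids. Among the members alone, the mitochondrial share was 96.2% and 96.3% in the epithelia, 81.1% ± 0.784 (SD, n = 3) in organoids of the bile duct and 84.0% ± 1.81 (SD, n = 3) in those of the pancreatic duct. The groups did not overlap in either share. With limma over all 8 libraries and organ as a covariate, 12 of 13 mitochondrial members were lower at an adjusted p under 0.05, where 26.9% of all 14967 genes tested were lower. Their median log2 difference was -2.18, beside 0.11 over all genes tested. All log2 differences here are of scaled FPKM + 1, which understates changes of weakly expressed genes.

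The complex IV core subunit mt-Co1 (chrM:5328-6872, plus strand) was the most abundant member per length in every library. Its deposited FPKM was 37878 and 23115 in the epithelia, 6223, 6332 and 6589 in bile duct organoids and 7134, 6636 and 6938 in pancreatic duct organoids. Both epithelia lay far above all 6 organoids, and bile duct epithelium was the higher of the pair. The log2 difference was -2.29 (SE 0.42, limma adjusted p = 0.00287). The call was lost with a pseudocount of 0.1 (adjusted p = 0.0669) and with no filter on low values (adjusted p = 0.168), while its difference stayed at -2.29. Over all alternatives the adjusted p ranged from 4.2e-05 to 0.168.

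Cytochrome b, mt-Cytb, is the only complex III subunit of the mitochondrial genome and has no near-identical copy among the annotated transcripts. It was at 19531 and 15299.6 FPKM in the epithelia, 3194, 3224 and 3324 in bile duct organoids and 4638, 3659 and 3554 in pancreatic duct organoids. Epithelia were again above every organoid, and pancreatic duct organoid 1 was the highest of the cultures. The difference was -2.41 (SE 0.34, limma adjusted p = 7.7e-04).

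All 7 mitochondrial complex I subunits were lower, with a median log2 difference of -2.20. The membrane subunit mt-Nd1, also without a copy, measured 12864 and 11363 FPKM in the epithelia against 2783, 2756 and 3003 (bile duct) and 4213, 3189 and 3310.2 (pancreatic duct) in the organoids, a difference of -2.06 (SE 0.31, limma adjusted p = 0.00108). The widest difference among all 13 members was that of mt-Nd4, at 6099.9 and 5060.1 FPKM in the epithelia and 989, 832 and 908 (bile duct) and 1284, 1073 and 996 (pancreatic duct) in the organoids (-2.60, SE 0.24, limma adjusted p = 9.9e-05). Each epithelium exceeded every organoid for both genes. Of the 12 that passed, mt-Nd5 differed least, at 4459.6 and 3441 FPKM against 1144, 1245 and 1264 (bile duct) and 1756, 1530.1 and 1245 (pancreatic duct) (-1.67, SE 0.26, limma adjusted p = 0.00121). The subunit mt-Nd6, encoded on the opposite strand, measured 2786 and 2280.2 FPKM against 653, 819 and 881 (bile duct) and 1062, 902 and 708 (pancreatic duct), a difference of -1.74. For mt-Nd2, the difference was -2.38. The copied genes mt-Nd3 and mt-Nd4l differed by -2.49 and -2.20, on far lower levels of 152 and 115 and 94.9 and 78.9 FPKM in the epithelia.

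The other complex IV subunits of the mitochondrial genome and the complex V subunit mt-Atp6 were lower too, all of them genes with a whole-length copy. The log2 differences were -1.73 for mt-Co2, -1.93 for mt-Co3 and -2.18 for mt-Atp6. The exception was mt-Atp8, the small complex V subunit whose gene overlaps mt-Atp6 over 21.1% of its exon. It was listed at 2.28 and 1.59 FPKM in the epithelia, 1.38, 3.43 and 1.60 in bile duct organoids and 4.45, 1.67 and 0.941 in pancreatic duct organoids, which is 4 to 14 reads per library. The groups overlapped, and the difference of -0.03 (SE 0.41, limma adjusted p = 0.958) was not called.

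**Figure D1:**
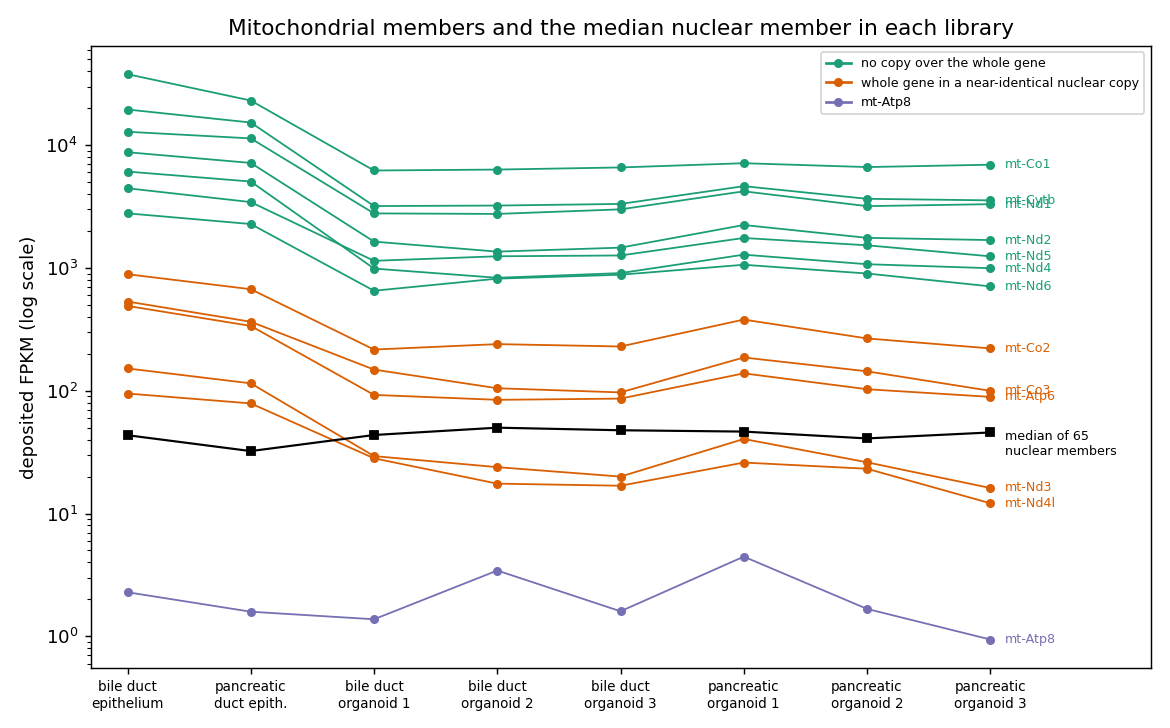
Deposited FPKM (log scale) of the 13 mitochondrial members in each of the 8 libraries, with the median of the 65 nuclear members as black squares; colours mark genes lying wholly in a near-identical nuclear copy. All mitochondrial members except mt-Atp8 stand higher in the 2 epithelia, while the nuclear median stays between 32.3 and 50.0 FPKM.

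Nuclear members did not share this difference. Their summed FPKM was 3771 and 2628 in the epithelia and 3482 to 4172 in the organoids, so pancreatic duct epithelium was the lowest library and bile duct epithelium lay among the organoids. Summed mitochondrial over summed nuclear FPKM was 25.1 and 26.4 in the epithelia, with a mean of 4.30 ± 0.221 among the bile duct cultures and 5.32 ± 0.680 among those of the pancreatic duct (SD, n = 3 each). Each epithelium exceeded every organoid in this ratio, which needs no scaling between libraries. On the log2 scale the epithelia exceeded the organoids by 2.43, where the SD among the 6 organoids was 0.208. It was 2.56 without pancreatic duct organoids 1 and 2.

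The epithelia held RNA of other cells, and these values stand beside the ratio. All 15 acinar markers were higher in both epithelia than in every organoid, summing to 22518 and 46143 FPKM against 2.05 to 8.45, and 8 of them were at 0 in all organoids. With the 15 acinar markers and the mitochondrial genes left out of the total, nuclear members took 1.34% and 0.969% of FPKM in the epithelia and 1.15% to 1.41% in the organoids. Without the acinar markers, the mitochondrial members took 24.8% and 20.1% in the epithelia against 5.30% to 6.95%. Smooth muscle markers (10 of 10 higher in both epithelia) summed to 2167 and 3658 FPKM against 4.91 to 10.5, and none was at 0 in all organoids. The part of these other cells in the mitochondrial levels was not tested.

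The mitochondrial ribosomal RNA genes, which are not members, varied in another way. The level of mt-Rnr1 was 1381 and 1100 FPKM in the epithelia, 3.76, 5.76 and 3.53 in bile duct organoids and 303, 284 and 2.11 in pancreatic duct organoids. That of mt-Rnr2 was 1503 and 933 FPKM, then 2.41, 4.46 and 3.44, then 423, 381 and 3.28. Pancreatic duct organoids 1 and 2 therefore lay between the epithelia and the other 4 organoids. Poly-T selection is meant to leave out ribosomal RNA. Pancreatic duct organoid 1 was the highest organoid for 12 of the 13 mitochondrial members, and whether this goes with its ribosomal RNA was not tested. Without organoids 1 and 2 of the pancreatic duct, 12 of 13 mitochondrial members remained below the epithelia at an adjusted p under 0.05 in limma.

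**Figure D2:**
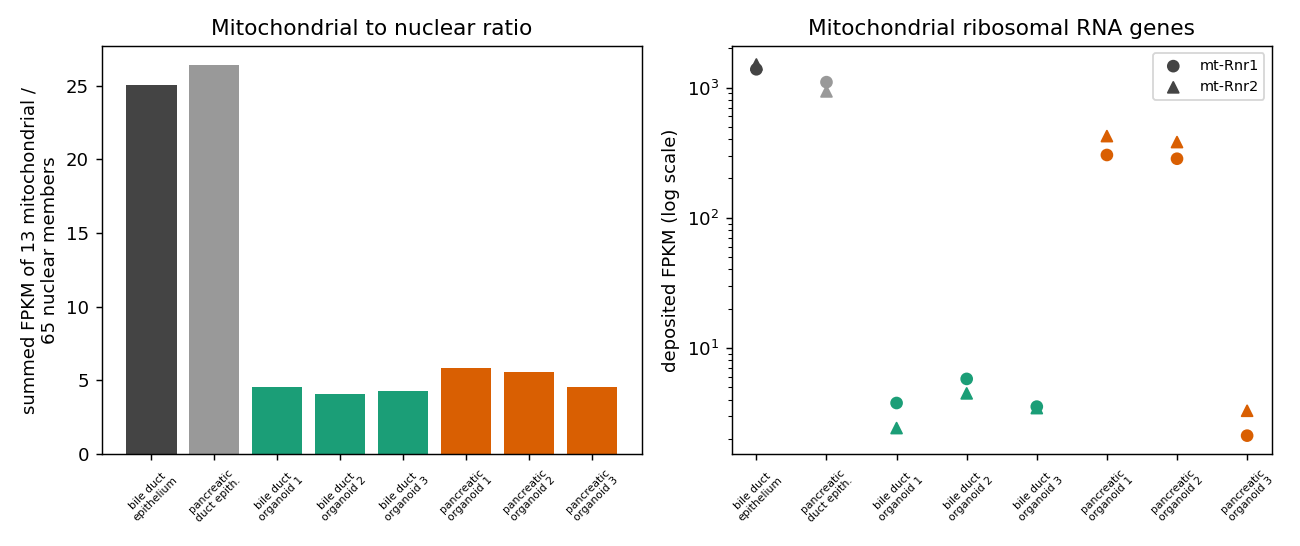
Left, summed FPKM of the 13 mitochondrial members divided by that of the 65 nuclear members in each library; right, FPKM of the mitochondrial ribosomal RNA genes on a log scale. The ratio is 25.1 and 26.4 in the epithelia and 4.09 to 5.85 in organoids, and pancreatic duct organoids 1 and 2 stand apart from the other 4 organoids on the right.

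Individual nuclear members went both ways between organoids and epithelia. Of 62 that passed the filter of 1 FPKM in at least 2 libraries, 20 were higher and 8 lower in organoids at an adjusted p under 0.05 in limma, and 34 were not called. Of the 8, Cox4i2 and Cox8b reached 1 FPKM in the epithelia alone and so had to differ. Among all 14967 genes, 32.5% were higher and 26.9% lower (59.5% called in all), so the share of nuclear members called higher, 32.3%, was near the background, and the share called lower, 12.9%, was below it. Scaled values did not overlap between organoids and epithelia for 19 nuclear members higher and 9 lower in organoids and for 12 mitochondrial members lower, where 35.5% of all genes were separate and higher and 28.3% separate and lower (63.9% in all). The nuclear median log2 difference was 0.02, beside 0.11 for all genes. The 3 members not tested were Ndufb2, Cox6a2 and Cox7b2, at 0 to 1.32 FPKM. The split depends on the scaling, as does that of all genes. On the FPKM as deposited 22 were higher and 5 lower (35.5% and 8.06%, beside 36.8% and 24.5% of all genes). Median ratio scaling gave 13 higher and 15 lower (20.6% and 23.8%, beside 26.0% and 32.1% of all genes). The median of all genes was 0.23 and -0.05 in these settings. Leaving out pancreatic duct epithelium left 5 of 60 members higher (8.33%, where 24.4% of all genes were), and leaving out bile duct epithelium left 1 of 60 lower (1.67%, where 10.5% of all genes were).

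**Figure D3:**
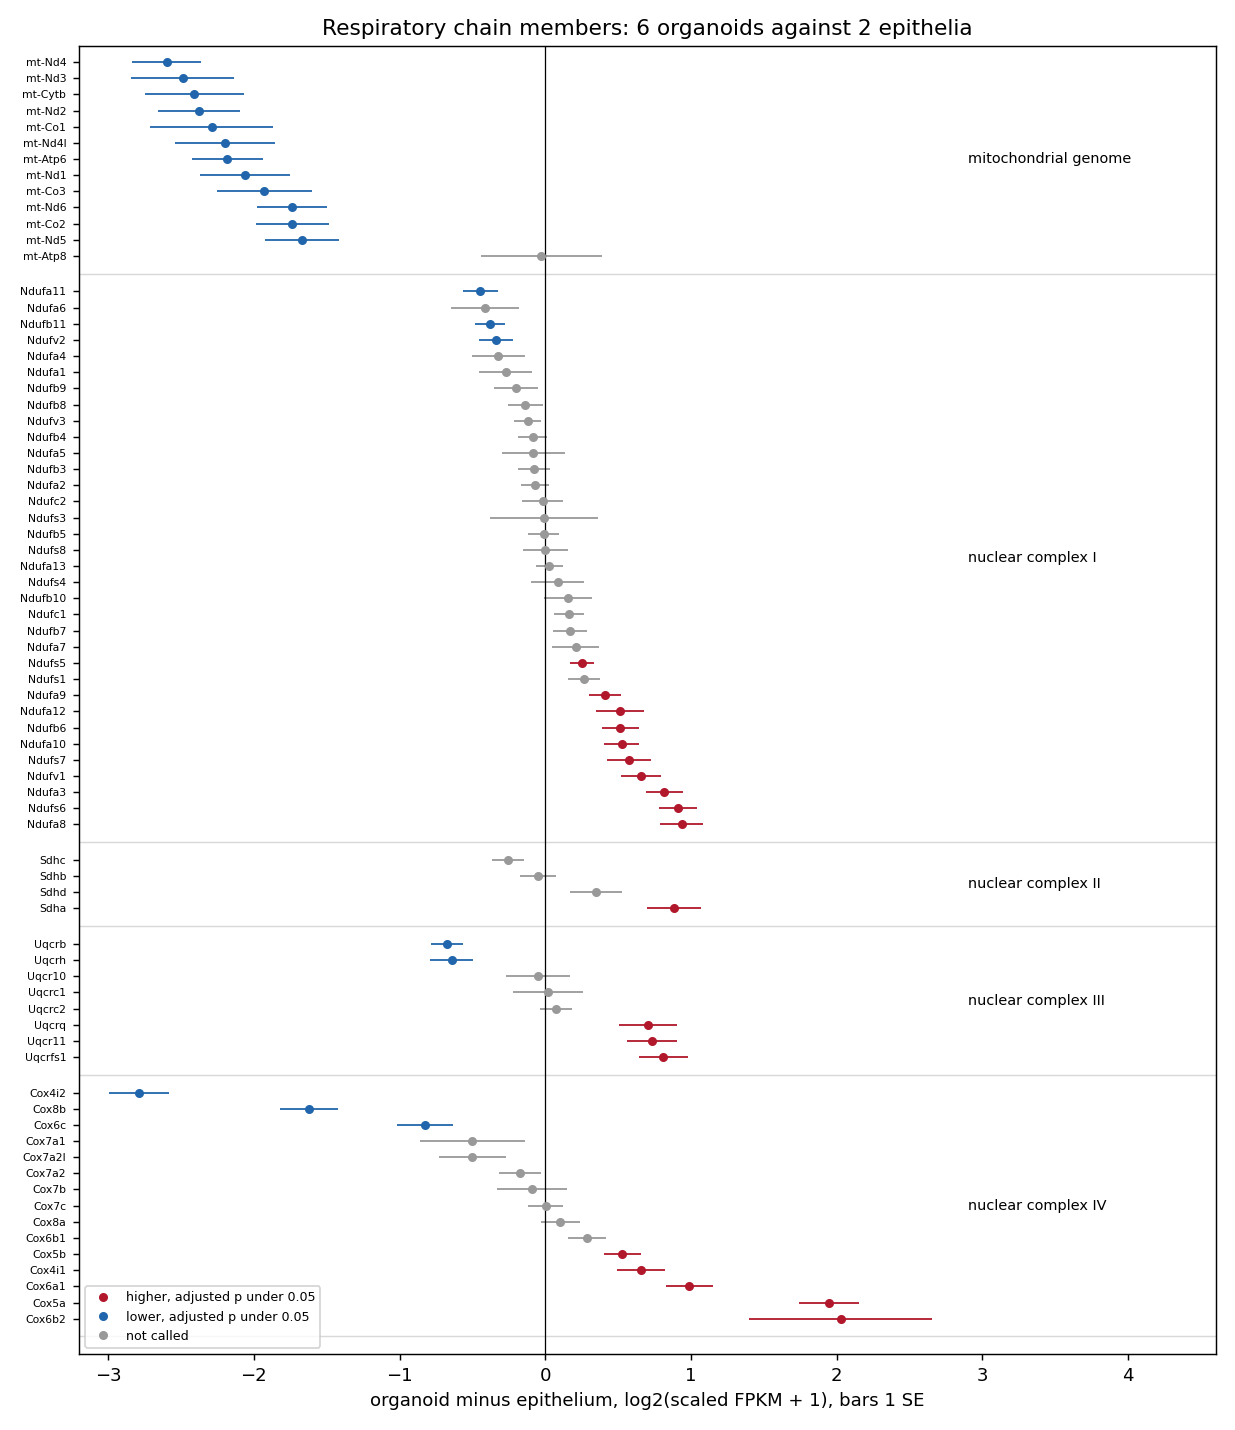
Log2 difference, organoids minus epithelia, of 74 of the 75 members tested (points, with bars of 1 SE), grouped by genome and complex; red and blue mark adjusted p under 0.05, which for Cox4i2 and Cox8b follows from their passing the filter only in the epithelia. All mitochondrial points except mt-Atp8 lie between -2.60 and -1.67, while nuclear points spread on both sides of 0.

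Complex I is the NADH dehydrogenase, and 11 of its 35 tested nuclear subunits were higher and 3 lower in organoids. These shares of 31.4% and 8.57% stand beside 32.5% and 26.9% of all genes tested, so the higher share is near the background. The accessory subunit Ndufa8 was at 63.1 and 42.6 FPKM in the epithelia, 112, 106 and 118 in bile duct organoids and 121, 96.3 and 108 in pancreatic duct organoids. Every organoid was above both epithelia, with a difference of 0.94 (SE 0.15, limma adjusted p = 0.00133). Ndufs6, which binds zinc in the peripheral arm, was at 32.6 and 26.4 FPKM against 55.1, 69.0 and 78.8 (bile duct) and 51.3, 52.1 and 67.0 (pancreatic duct), also without overlap (0.91, SE 0.13, limma adjusted p = 8.0e-04). The accessory subunit Ndufa3 followed at 0.82. Among the catalytic core subunits, Ndufv1, which carries the flavin that accepts electrons from NADH, was higher by 0.66 and Ndufs7 by 0.57. Ndufa10, Ndufb6, Ndufa12, Ndufa9 and Ndufs5 were higher by 0.25 to 0.52. Without pancreatic duct epithelium the calls of Ndufv1, Ndufs7 and these 5 were lost, and without bile duct epithelium those of Ndufb6, Ndufa9 and Ndufs5. Median ratio scaling also ended the calls of Ndufs7, Ndufb6, Ndufa12, Ndufa9 and Ndufs5. Of 16 alternatives, Ndufa12 lost its call in 7 and Ndufs5 in 8. Ndufb6 shares 39.0% of its exon with Smim27, and near-identical copies cover 46.9% of the Ndufs5 transcript and 36.2% of that of Ndufa12, so their levels are uncertain.

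The 3 lower complex I members differed little. Ndufa11, an accessory membrane subunit, measured 17.6 and 15.002 FPKM in the epithelia against 12.1, 11.5 and 14.9 (bile duct) and 13.7, 12.6 and 12.4 (pancreatic duct), with no overlap (-0.45, SE 0.12, limma adjusted p = 0.0159). The others were Ndufb11 at -0.38 and the core subunit Ndufv2 at -0.34, and the call of Ndufv2 was lost in 11 of 16 alternatives. Ndufa11 lost its call when either epithelium was left out, and Ndufb11 without that of the bile duct. Both calls were also lost on the FPKM as deposited, and that of Ndufb11 without pancreatic duct organoids 1 and 2. The nuclear complex I members with the highest mean FPKM after Ndufb9 were Ndufa8 and Ndufa6, and neither Ndufb9 nor Ndufa6 was called. Ndufb9 measured 138 and 88.2 FPKM in the epithelia and 109, 105 and 112 (bile duct) and 115, 90.8 and 98.8 (pancreatic duct) in the organoids. These all lay within the span of the epithelia in FPKM as deposited, while on scaled FPKM pancreatic duct organoids 2 and 3 (90.5 and 92.5) were below both epithelia (145.9 and 95.4). Ndufs3, a core subunit, was weakly listed at 3.64 and 0.891 FPKM in the epithelia, 1.16, 2.87 and 1.65 in bile duct organoids and 2.24, 2.14 and 3.11 in pancreatic duct organoids. Because 75.7% of its transcript lies in the processed pseudogene Gm12251, that level is uncertain.

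Complex II is succinate dehydrogenase, and 1 of its 4 genes changed (25%, beside 59.5% of all genes tested). Sdha, the flavoprotein that oxidizes succinate, was at 64.5 and 41.0 FPKM in the epithelia, 87.4, 120.2 and 109 in bile duct organoids and 111, 87.1 and 120.3 in pancreatic duct organoids. The organoids all exceeded the epithelia, by 0.88 (SE 0.18, limma adjusted p = 0.00495), and the call was lost without pancreatic duct epithelium, where the difference was 0.57. The membrane anchor Sdhd had the highest mean level in the complex, 104 FPKM, and was not called. It stood at 107 and 58.9 FPKM in the epithelia, and the organoids had 100.2, 121 and 125 in bile duct and 110.3, 91.2 and 121 in pancreatic duct cultures. Pancreatic duct epithelium alone was below every organoid. The iron-sulphur subunit Sdhb and the other anchor Sdhc were not called either, with means of 33.5 and 30.3 FPKM over the 8 libraries.

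Complex III, the cytochrome bc1 complex, had 3 of 8 nuclear members higher and 2 lower, and these shares of 37.5% and 25% are near the 32.5% and 26.9% of all genes. Uqcrfs1, the Rieske iron-sulphur protein, was at 61.9 and 34.4 FPKM in the epithelia, 90.5, 92.5 and 95.9 in bile duct organoids and 82.8, 77.1 and 101 in pancreatic duct organoids. All organoids were above both epithelia (0.81, SE 0.17, limma adjusted p = 0.00467). The small subunits Uqcr11 and Uqcrq were higher by 0.73 and 0.70. None of these 3 calls held without pancreatic duct epithelium, nor that of Uqcrq without bile duct epithelium or with median ratio scaling. In contrast, Uqcrb measured 76.2 and 56.1 FPKM against 46.5, 50.4 and 47.9 (bile duct) and 44.1, 35.9 and 43.9 (pancreatic duct), all organoids below both epithelia (-0.67, SE 0.11, limma adjusted p = 0.00139). The hinge protein Uqcrh was lower too (-0.64, SE 0.15, limma adjusted p = 0.00834), and without bile duct epithelium the call was lost at -0.35. Copies of at least 98% identity cover 62.8% of the Uqcrb transcript and 38.4% of that of Uqcr11, so both levels are uncertain. The core proteins Uqcrc1 and Uqcrc2 and the small subunit Uqcr10 were not called. Uqcr10 was at 125 and 59.8 FPKM in the epithelia, 80.4, 101 and 105 in the bile duct cultures and 102, 76.6 and 88.5 in those of the pancreatic duct, all between the epithelia.

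Complex IV, cytochrome c oxidase, had 5 of 15 tested nuclear members higher (33.3%, beside 32.5% of all genes) and 3 lower (20%, beside 26.9%), and its 3 mitochondrial members were lower as given above. Of the nuclear ones lower, Cox4i2 and Cox8b passed the filter only through the epithelia. Cox6a1, of the form found in most tissues, had the highest mean FPKM of the nuclear members. It was at 229.8 and 169 FPKM in the epithelia, 359, 471 and 451 in bile duct organoids and 428, 383 and 505 in pancreatic duct organoids. Every organoid was above both epithelia (0.99, SE 0.16, limma adjusted p = 0.00165). Cox5a, a subunit on the matrix side, was at 5.80 and 2.25 FPKM against 21.1, 18.4 and 20.7 (bile duct) and 19.2, 14.6 and 17.9 (pancreatic duct), without overlap (1.95, SE 0.21, limma adjusted p = 1.9e-04). The noncoding gene Gm26631, which overlaps Cox5a on the opposite strand, matches 42.0% of its transcript at 98% identity or more (12.8% of its merged exons). The counting is not stated to use strand, so this level is uncertain. Cox4i1, the usual form of subunit 4, was higher by 0.66 and the zinc-binding Cox5b by 0.53. Both calls were lost without pancreatic duct epithelium, and that of Cox5b also with median ratio scaling. A copy of at least 98% identity covers 45.1% of the Cox5b transcript, so its level is uncertain. Cox8a and Cox6b1, next after Cox6a1 in mean level with 297 and 157 FPKM, were not called. Cox7a2, the form of subunit 7a found in most tissues, and Cox7b were not called either, with means of 72.8 and 93.5 FPKM.

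The alternative forms of complex IV subunits are described next. Cox4i2 (chr2:152754173-152765037, plus strand, GRCm38), the form of subunit 4 known from lung and from pericytes and smooth muscle of vessels, was at 6.41 and 8.29 FPKM in the epithelia. It was at 0, 0.698 and 0.207 in bile duct organoids and 0.165, 0.289 and 0.487 in pancreatic duct organoids, which is 0 to 11 reads. Both epithelia lay above every organoid, by a log2 difference of -2.79. The gene passed the filter only through the epithelia, where it is high, so the difference is given as a description without a test. Cox4i2 made up 6.45% and 12.5% of the summed FPKM of both subunit 4 genes in the epithelia and at most 0.521% in organoids. All 7 pericyte markers were higher in both epithelia than in all organoids, summing to 281 and 295 FPKM against 1.69 to 3.96, with Kcnj8 at 0 in every organoid. The smooth muscle markers given above moved the same way, and the part of either cell type in Cox4i2 was not tested.

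Cox8b, the heart and muscle form of subunit 8, was at 3.24 and 1.26 FPKM in the epithelia, and 1 read was found in bile duct organoid 1 and 1 in pancreatic duct organoid 2, with none in the other 4 organoids. It too passed the filter through the epithelia alone, and its log2 difference of -1.62 is a description. Cox7a1, the muscle form of subunit 7a, was at 6.10 and 2.06 FPKM in the epithelia, 1.36, 2.24 and 2.44 in bile duct organoids and 3.28, 2.66 and 3.68 in pancreatic duct organoids. Only bile duct epithelium was above the organoids, and the difference of -0.50 (SE 0.36, limma adjusted p = 0.265) was not called. Without pancreatic duct epithelium it was -1.35 and without bile duct epithelium 0.35, each then resting on 1 epithelium. Of 9 striated muscle markers in the table, 5 were higher in both epithelia than in every organoid. Their sum was 53.3 and 19.6 FPKM against 0.956 to 9.55, with Actc1, Actn2 and Tnnt3 at 0 in all organoids. For adipocyte markers, 5 of 7 were higher in both epithelia, the sum was 233 and 102 FPKM against 0.644 to 1.77, and Lep was at 0 in the organoids. The part of these cells in Cox8b and Cox7a1 was not tested.

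Cox6b2, a form of subunit 6b described from testis, went the other way. It was at 1.61 and 2.92 FPKM in the epithelia, 19.4, 5.42 and 12.1 in bile duct organoids and 9.55, 37.8 and 9.58 in pancreatic duct organoids. All organoids were above both epithelia but varied widely, with pancreatic duct organoid 2 the highest. The difference was 2.03 (SE 0.63, limma adjusted p = 0.0267), and the call was lost when either epithelium was left out. Its share of the subunit 6b pair was 1.1% and 2.64% in the epithelia and 3.01% to 20.7% in the organoids. The ubiquitous subunit Cox6c was lower in organoids, at 53.7 and 32.3 FPKM against 27.5, 23.2 and 23.5 (bile duct) and 28.1, 24.7 and 25.4 (pancreatic duct) (-0.82, SE 0.19, limma adjusted p = 0.00837), and its call was lost without bile duct epithelium. Cox6a2 and Cox7b2 had at most 6 reads in any library.

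**Figure D4:**
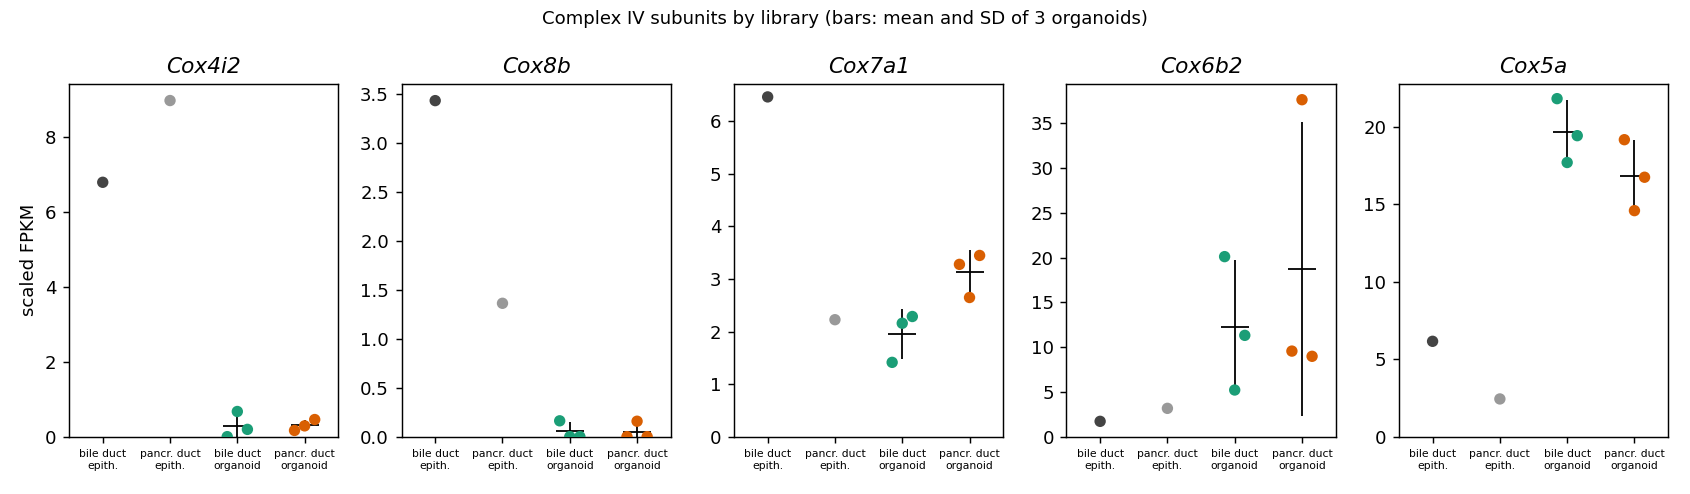
Scaled FPKM of 5 complex IV genes in each library (points), with the mean and SD of the 3 organoids of each duct as bars; the vertical axes start at 0 and differ between panels. Cox4i2 and Cox8b are near 0 in organoids, Cox7a1 is high in bile duct epithelium alone, and Cox6b2 and Cox5a are higher in all organoids than in the epithelia.

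Promoters are shown because nuclear respiratory chain genes are known for shared promoter motifs. RefSeq promoters (250 bases before to 50 after the gene start, build GRCm38.p6) could be matched for 53 of the 65 nuclear members. Each was searched on both strands for GCGCATGCG (NRF1), CCGGAAGTG (ETS factors such as GABP), AAGATGGCG (YY1) and TCAAGGTCA (oestrogen-related receptors). The NRF1 letters were in 5 members (9.43%) against 1.95% of the promoters of all 27025 genes, and the YY1 letters in 5 (9.43%) against 1.64%. The ETS letters were in 2 (3.77%) against 2.25%, and the oestrogen-related receptor letters in 1 (1.89%) against 0.466%. Any of the 4 was in 13 (24.5%) against 6.01%. The promoters of 3 members called in organoids follow, with the matched letters in capitals.
Cox6a1: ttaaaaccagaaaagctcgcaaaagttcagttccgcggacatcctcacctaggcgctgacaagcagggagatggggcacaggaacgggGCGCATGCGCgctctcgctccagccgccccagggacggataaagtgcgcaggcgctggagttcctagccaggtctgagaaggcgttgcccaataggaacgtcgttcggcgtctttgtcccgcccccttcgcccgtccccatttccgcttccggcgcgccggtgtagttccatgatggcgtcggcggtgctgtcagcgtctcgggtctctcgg
Ndufs6: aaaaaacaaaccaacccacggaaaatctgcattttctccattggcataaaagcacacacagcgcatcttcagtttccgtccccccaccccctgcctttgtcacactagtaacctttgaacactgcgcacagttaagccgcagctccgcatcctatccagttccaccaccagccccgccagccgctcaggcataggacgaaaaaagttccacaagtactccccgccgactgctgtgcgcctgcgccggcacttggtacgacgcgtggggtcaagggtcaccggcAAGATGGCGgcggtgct
Uqcrh: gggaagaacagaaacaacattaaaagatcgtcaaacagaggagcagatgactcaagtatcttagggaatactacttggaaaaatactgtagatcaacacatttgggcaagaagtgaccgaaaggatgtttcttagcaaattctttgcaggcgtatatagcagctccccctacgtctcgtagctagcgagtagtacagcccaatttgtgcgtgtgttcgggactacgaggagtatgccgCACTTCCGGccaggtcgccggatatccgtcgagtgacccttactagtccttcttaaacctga
Cox6a1 (chr5:115348909-115349208, minus strand) holds the NRF1 letters on both strands of a single palindromic stretch, Ndufs6 (chr13:73328433-73328732, minus strand) those of YY1 and Uqcrh (chr4:116075021-116075320, minus strand) those of ETS factors, as CACTTCCGG on the opposite strand. A motif of any kind was in 6 of 17 members higher in organoids, in 2 of 5 lower ones and in 5 of 29 that were tested and not called. A match of letters is a description of the window and shows no binding.

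Taken duct by duct, with a single epithelium each and hence no test, both ducts showed the same 12 mitochondrial members at least 2-fold lower in organoids with all 3 cultures on that side. Their median log2 difference with mt-Atp8 included was -2.32 for the bile duct and -1.83 for the pancreatic duct. In bile duct, 2 of 62 nuclear members were higher, Cox6b2 (2.11) and Cox5a (1.52), and 5 were lower, beside 15.2% and 24.3% of all genes (39.5% in either direction). The lower ones were Cox4i2, Cox8b, Cox7a1, Cox6c and Cox7a2l, all named as complex IV genes. In pancreatic duct, 8 of 63 were higher and 2 lower, beside 17.6% and 23.5% of all genes (41.1% in either direction). The higher ones were Cox5a (2.37), Cox6b2, Cox6a1, Sdha, Ndufa8, Uqcrfs1, Ndufa3 and Cox4i1, and the lower ones were Cox4i2 (-2.94) and Cox8b (-1.17). The nuclear median was -0.07 for the bile duct and 0.22 for the pancreatic duct. Whether the ducts differ in these changes was not tested.

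**Figure D5:**
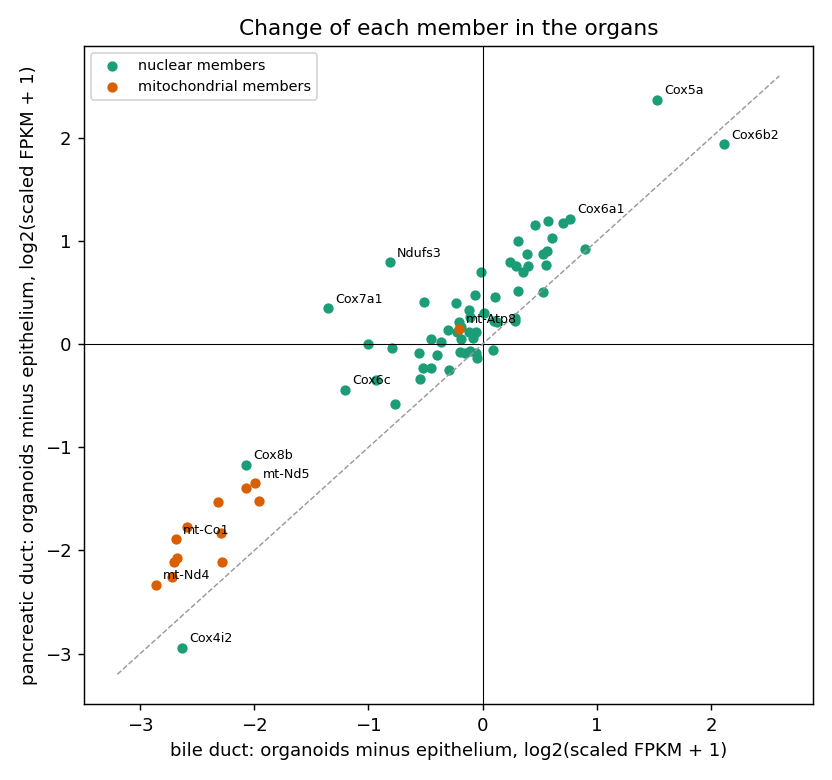
Log2 difference between the mean of 3 organoids and the single epithelium for each member, bile duct on the horizontal and pancreatic duct on the vertical axis, with the line of equal change dashed. Mitochondrial members lie at the lower left except mt-Atp8 near 0, Cox5a and Cox6b2 lie at the upper right, and Cox7a1 and Ndufs3 have opposite signs in the ducts.

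Between bile duct and pancreatic duct organoids no gene passed the threshold in limma, 0 of 12094 (0.0%), nor did any of the 73 members tested. The unadjusted p was under 0.05 for 311 genes (2.57%) and 1 member, Cox7a1, at 1.36, 2.24 and 2.44 FPKM in the bile duct cultures and 3.28, 2.66 and 3.68 in those of the pancreatic duct (log2 difference -0.50, SE 0.17, limma adjusted p = 1.00). Its groups did not overlap. Without pancreatic duct organoid 3, 11 genes were called, none a member. In the reads that the FPKM imply, bile duct organoid 1 was nearer to pancreatic duct organoid 2 (chi-square per degree of freedom 37.7) than to its own group. Its values with bile duct organoids 2 and 3 were 122 and 121, while those 2 were close to each other (18.9). Such spread within a group limits what can be called, so 0 calls do not show that the ducts are alike. The mitochondrial members had a median difference of -0.29 and 12 of 13 were below 0, that is lower in bile duct organoids, where the nuclear median was 0.05. Without pancreatic duct organoids 1 and 2 the mitochondrial median was 0.03. The other members furthest from 0 were Cox6b2 (-0.46) and mt-Nd2 (-0.36), lower in bile duct organoids, and Cox7b (0.45), Uqcrc1 (0.33) and Ndufs6 (0.23), higher there. Cox7b, a small complex IV subunit, measured 77.4, 159 and 98.8 FPKM in organoids of the bile duct, where those of the pancreatic duct had 72.4, 68.8 and 92.8, with bile duct organoid 2 far above the rest and the groups overlapping. Values did not overlap for mt-Co1, mt-Cytb and mt-Nd1, lower in bile duct organoids, for Cox7a1, and for Cox7c and Uqcrb, higher there. Over all genes, 6.69% did not overlap, 2.95% with bile duct organoids higher and 3.74% with them lower. Pancreatic duct organoid 2 was the lowest of the 6 for 35 of 60 nuclear members (58.3%), and for 24.1% of all genes tested.

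Between the epithelia, which are 1 library each, nuclear members were mostly higher in bile duct, with 59 of 63 above 0 and a median of 0.41, where the median of all genes was -0.04. Mitochondrial members were higher there in 13 of 13, with a median of 0.33. Only 4 nuclear members reached 2-fold, beside 8.73% of genes higher and 4.54% lower. They were Ndufs3 (1.31), Cox7a1 (1.21), Cox5a (1.06) and Uqcr10 (1.02), and none was 2-fold lower. Acinar markers took 5.57% of all FPKM in the epithelium of the bile duct and 11.8% in that of the pancreatic duct. Duct markers went the other way, with 11 of 12 higher there by 2-fold or more and sums of 2720 and 673 FPKM. Intestinal epithelium markers were 2-fold higher there for 8 of 8, with sums of 275 and 11.7 FPKM, and hepatocyte markers for 6 of 6 with a value, with sums of 403 and 83.8. Adipocyte markers were higher for 4 of 5 and striated muscle markers for 4 of 5, while 4 of 6 islet markers were lower, with sums of 62.2 and 169 FPKM. The part of any of these cells was not tested.

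Other genes of the pathway, from lists drawn up by function, were compared between organoids and epithelia in the same limma fit. The counts below stand beside 32.5% of all genes higher and 26.9% lower. Of 17 nuclear complex V genes, 6 were higher and 1 lower, including the catalytic Atp5b (1.04), its inhibitor Atpif1 (1.33) and Atp5l (-0.45). Of 8 tested chain genes outside the name rule, 3 were higher: the complex III subunit Cyc1 (0.95), cytochrome c, encoded by Cycs (0.77), and the electron transfer protein Etfa (0.53). Ndufab1, the acyl carrier protein of complex I, differed by 0.07 and was not called (limma adjusted p = 0.706). Ndufa4l2, a relative of Ndufa4 known from hypoxia and from pericytes, was at 12.6 and 28.01 scaled FPKM in the epithelia and at most 0.220 in organoids, and passed the filter only through the epithelia, so no test of it is given. Of 42 assembly factors 20 were higher and 1 lower, with Ndufaf6 at 1.17 and Tmem126b at -0.60. Cox11, which delivers copper to complex IV and is counted among the higher ones, was at 0.289 and 0.443 scaled FPKM in the epithelia and 6.05 to 9.09 in organoids, and passed the filter only through the organoids.

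Of 31 genes that keep and transcribe mitochondrial DNA, 15 were higher and 3 lower in organoids, beside the same shares of all genes. The helicase Twnk differed by 1.36, the topoisomerase Top1mt by 1.15, the RNA-binding Lrpprc by 1.14, the RNA polymerase Polrmt by 0.91 and the packaging factor Tfam by 0.78. The lower ones were Mterf3 (-0.76), Mterf2 (-0.62) and the poly(A) polymerase Mtpap (-0.45). Of 14 biogenesis regulators 8 were higher, Myc (2.54) and the receptor Esrra (1.45) most of all, and 2 were lower, Sirt1 (-1.27) and the coactivator Ppargc1a, which passed the filter only through the epithelia. Of 16 citric acid cycle genes 9 were higher and 2 lower, with Dlat at 1.18 and Sucla2 at -0.37. The medians of these lists ran from 0.10 to 0.58, beside 0.11 for all genes. Without pancreatic duct epithelium, where 24.4% of all genes were higher, fewer of these genes were called, for example 6 of 41 assembly factors, 9 of 31 maintenance and transcription genes and 2 of 16 citric acid cycle genes higher. The other counts without it were 3 higher and 1 lower for complex V, 0 of 7 for the genes outside the name rule and 5 higher of 13 regulators. Without bile duct epithelium, where 26.1% of all genes were higher, the higher ones were 8 of 17 for complex V, 3 of 7 outside the name rule, 13 of 42 for assembly, 11 of 31 for maintenance and transcription, 6 of 13 for regulators and 9 of 16 for the citric acid cycle. With median ratio scaling, where 26.0% of all genes were higher and 32.1% lower, the splits were 6 higher and 2 lower for complex V, 3 and 2 outside the name rule, 16 and 4 for assembly, 13 and 3 for maintenance and transcription, 6 and 2 for regulators and 7 and 2 for the citric acid cycle. Between the organoid groups 0 genes of the 6 lists were called in limma, and 2, both assembly factors, had an unadjusted p under 0.05.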

How the data were processed

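RNA-seq of poly-T selected RNA from 8 libraries was analysed, prepared per the labels' protocols with a kit that does not mark strand. The deposited table gives 1 value per gene and library. Its header does not name the unit, and the values were read as FPKM made by the authors, because low values are whole multiples of what 1 read is worth for the gene's length (89.4% to 90.1% of values within 0.05 of a read), from which reads per library were recovered. The submitters' processing notes name Bowtie2 2.2.3, HISAT2 2.1.0, TopHat2 and HTSeq 0.6.0. Which was used for what, the strand setting and the genome build are not given in the sources used here. Gene coordinates are those of the table, which for 65 of the 78 members are the same as in GENCODE M21 (GRCm38), and sequences come from M21 transcripts and RefSeq promoters.

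FPKM were scaled between libraries by a trimmed mean of log ratios (30% of ratios and 5% of levels trimmed on each side) and tested as log2(FPKM + 1) in limma 3.58.1 (R 4.3.3) with an intensity trend and Benjamini-Hochberg adjustment over all genes tested. Organoids were compared with epithelia over all 8 libraries with organ as a covariate, for genes with 1 FPKM in at least 2 libraries. The organoid groups were compared among the 6 organoids, for genes with 1 FPKM in at least 3. Single epithelia have no test: a difference counts at 2-fold with all 3 organoids on 1 side of the epithelium. Transcripts were compared with those of other genes by blastn 2.17.0. Alternatives were other scalings, pseudocount, filters, no trend, no organ term, a replicate block and leaving out libraries. Members named with values are the mitochondrial genes, the 3 of highest mean FPKM per nuclear complex, the complex IV genes with tissue forms, those called, and the 3 furthest apart per comparison in each direction. The values of 1 member are not reported here, though counts include it. The members and lists were chosen with earlier results of these data known. Read numbers given for weak genes are of PCR products without molecular identifiers and show counting depth only.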

Additional observations from a re-analysis of the deposited data

Results flagged for a closer look

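On scaled values, in 8 members every bile duct organoid lay on one side of its epithelium and every pancreatic duct organoid on the other side of its own. In deposited FPKM this does not hold for Uqcrc2, Cox8a, Cox7c and Ndufs4, where 1 bile duct organoid exceeded its epithelium. The values are log2 differences of scaled FPKM + 1, organoid mean minus the single epithelium, and the difference between the ducts was not tested. Cox7a1 was at -1.35 in bile duct and 0.35 in pancreatic duct, and Ndufs3, whose transcript largely lies in a pseudogene, at -0.81 and 0.80. Uqcr10 was at -0.51 and 0.41, Ndufs4 at -0.23 and 0.40, and Cox8a at -0.12 and 0.33. The smaller ones were Cox7c at -0.21 and 0.21, Uqcrc2 at -0.11 and 0.26, and Ndufa2 at -0.19 and 0.05. In all 8 the bile duct epithelium was the higher of the single epithelia, so each sign rests on 1 library per duct. How many of all genes did the same was not counted, so the number 8 is no result about these members.

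Mitochondrial ribosomal RNA, which no comparison uses, was far higher in 2 organoids than in the other 4. The FPKM of mt-Rnr1 was 303 in pancreatic duct organoid 1 and 284 in organoid 2, and that of mt-Rnr2 was 423 and 381, where the remaining organoids had 2.11 to 5.76.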

How the results depend on the processing

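Of the 40 members called between organoids and epithelia, 19 kept the call in every one of the 16 alternatives in which they were tested, weak genes being left out by some filters, and none of the 40 changed sign. Cox4i2 and Cox8b, which passed the filter through the epithelia alone and so had to differ, are among them; of the other 38, 17 kept the call. Of 35 uncalled members 28 changed sign in some alternative, as did 44 of 73 between the organoid groups. Members called numbered 23 to 40 when 1 library was left out, with 23 without pancreatic duct epithelium. Calls over all genes also fell in the fit without pancreatic duct epithelium, so the lower count there is not particular to the members. Nuclear members higher numbered 13 with median ratio scaling (20.6%, beside 26.0% of all genes). With 1 organoid left out they numbered 18 to 21 (29.0% to 33.9%, beside 30.3% to 33.7%). Those lower numbered 5 on the FPKM as deposited (8.06%, beside 24.5%) and 15 with median ratio scaling (23.8%, beside 32.1%). Leaving out 1 organoid gave 7 to 9 lower (11.3% to 14.5%, beside 25.6% to 28.4%). Fewer were higher without pancreatic duct epithelium and fewer lower without bile duct epithelium, as given above. Leaving out an epithelium leaves 1 library on that side, assumed to vary like the rest. With the organ term in the fit, the difference is then that of the duct whose epithelium remains, so this is no separate check of a call. A filter at 10 FPKM left 1 member 2-fold apart between the epithelia, since fewer genes were tested. The log2 gap of mitochondrial over nuclear members was 1.89 as a ratio of medians. Between the organoid groups, leaving out 1 library gave 0 to 11 genes. With a replicate block 0 genes were called (295 at an unadjusted p under 0.05, 2 of them members). Same-numbered organoids correlated in their deviations at -0.10, -0.44 and 0.48, and not every organoid correlated best with its own number. Deviations from the mean of so few libraries cancel out within a group, so these correlations depend on each other. They cannot decide whether the numbers pair the organoids. Of the reversed values, Cox7a1 ran from -1.35 to 0.35 with 1 library left out. Ndufs3 was 0.076 on the FPKM as deposited, 0.061 with a pseudocount of 0.1, and -0.82 to 0.80 with 1 library left out. For mt-Atp8 the values were 0.057 as deposited and -0.24 to 0.15 with 1 library left out. Cox6b2 between the organoid groups was 0.23 without pancreatic duct organoids 1 and 2, and -0.88 to 0.20 with 1 library left out. Apart from the filter, the cause was not tested. Depth limits mt-Atp8, Cox8b, Cox6a2 and Cox7b2, which rest on few reads.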

Other observations

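The 2 neighbouring complex I genes mt-Nd4 and mt-Nd5 did not keep the same ratio. Deposited FPKM of mt-Nd5 over that of mt-Nd4 was 0.731 and 0.680 in the epithelia, bile duct first, against 1.16 to 1.497 across the 6 organoids, without overlap. A copy on chromosome 1 covers 63.6% of mt-Nd4, and whether reads lost to it differ between libraries was not tested. The mitochondrial tRNA gene mt-Tp was at 3290 and 2284 FPKM in the epithelia and 339 to 407 in the organoids. The share of mt-Co1 in the summed FPKM of the mitochondrial members was 40.1% and 33.4% in the epithelia and 30.9% to 37.2% in the organoids, where the groups overlapped.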
